A study of Sus scrofa and Bos taurus with 31 samples.

Results

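Urea cycle and gluconeogenesis genes were examined in the pig ATAC-seq peak lists. The 7 genes were CPS1, ARG1, ASS1 and ASL of the urea cycle, PCK1 and FBP1 of gluconeogenesis and TAT of amino acid breakdown, chosen by name among the 20674 protein-coding genes of the RefSeq annotation of Sscrofa11.1. All 7 were found, and all 7 were among the 19638 genes tested. ATAC-seq uses a transposase that cuts and tags DNA not packed into nucleosomes, and a peak is a stretch where the tagged reads pile up over the local background. The study profiled chromatin in farm animals, and the pig part used here holds 16 libraries, 1 from each of 8 tissues (liver, spleen, lung, skeletal muscle, adipose, hypothalamus, cerebral cortex and cerebellum) in each of 2 animals, P348 and P350. Per the study's methods the animals were castrated male Yorkshire littermates, sexually mature at 6 months, with no treatment named, the adipose was subcutaneous, and the replicate of every tissue is the animal. Cattle libraries of the same series were not used here. Each tissue is a mixture of cell types, so fewer cells of a type and less open chromatin per cell cannot be told apart.

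The urea cycle turns ammonia from amino acid breakdown into urea and runs in full in hepatocytes. CPS1, in the mitochondrion, makes carbamoyl phosphate from ammonia. ASS1 and ASL then build and cleave argininosuccinate in the cytosol, and ARG1 splits arginine into urea and ornithine. Gluconeogenesis makes glucose from lactate, glycerol and amino acids during fasting. PCK1 makes phosphoenolpyruvate from oxaloacetate, and in adipocytes it also feeds the making of glycerol for triglycerides. FBP1 removes a phosphate from fructose bisphosphate, and TAT starts the breakdown of tyrosine and is a classic gene induced by glucocorticoids in hepatocytes. CPS1, ARG1, PCK1 and TAT are known for strong expression in few tissues, whereas ASS1 and ASL are used in many tissues to make arginine.

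Each gene was measured over its annotated length and 10 kb either side. CPS1 lies on chr15:113210038-113339086 and is the longest of the 7, at 129049 bp. ARG1 lies on chr1:32006035-32028983 on the minus strand. ASS1 lies on chr1:270531434-270586364, ASL on chr3:16637481-16646869, PCK1 on chr17:57930507-57936523 and FBP1 on chr10:27588609-27622225. TAT lies on chr6:14571311-14583203 on the minus strand. The annotation gives 3 transcription start sites (TSS) for ARG1 and for ASS1, 2 for PCK1 and 1 for each of the other 4 genes. The window of FBP1 holds 1 TSS of another protein-coding gene, its paralog FBP2, and the windows of ARG1 and ASS1 reach into MED23 and HMCN2 without holding their TSS. The other 4 windows touch no other protein-coding gene.

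Sequences from Sscrofa11.1 are shown where the peaks differed most between tissues or were shared by all of them. The first 4 are the 250 bp before the most upstream TSS of TAT (chr6:14583204-14583453, minus strand), PCK1 (chr17:57930257-57930506, plus strand), FBP1 (chr10:27588359-27588608, plus strand) and CPS1 (chr15:113209788-113210037, plus strand). The fifth is the central 300 bp of the CPS1 region with the highest fold enrichment of any library, far downstream in the gene (chr15:113319937-113320236, plus strand). Capitals mark matches, on either strand, to any of 7 motifs: an HNF4 site (CAAAGTCCA), a FOXA site (TGTTTAC), an HNF1 site (GTTAATNAT), a C/EBP site (TTGCNNAA), a cyclic AMP response core (ACGTCA), a glucocorticoid receptor core (ACANNNTGT) and a TATA box (TATAAA).
TAT promoter: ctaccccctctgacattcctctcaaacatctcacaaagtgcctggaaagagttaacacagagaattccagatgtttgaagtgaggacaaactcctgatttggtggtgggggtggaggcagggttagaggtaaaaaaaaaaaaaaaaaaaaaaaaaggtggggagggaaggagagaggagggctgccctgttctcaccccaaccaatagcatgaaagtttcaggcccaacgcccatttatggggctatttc
PCK1 promoter: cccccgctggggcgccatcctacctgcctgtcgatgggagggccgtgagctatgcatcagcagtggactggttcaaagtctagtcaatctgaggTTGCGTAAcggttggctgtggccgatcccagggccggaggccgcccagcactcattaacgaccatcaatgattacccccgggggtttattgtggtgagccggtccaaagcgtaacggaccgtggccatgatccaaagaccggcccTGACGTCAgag
FBP1 promoter: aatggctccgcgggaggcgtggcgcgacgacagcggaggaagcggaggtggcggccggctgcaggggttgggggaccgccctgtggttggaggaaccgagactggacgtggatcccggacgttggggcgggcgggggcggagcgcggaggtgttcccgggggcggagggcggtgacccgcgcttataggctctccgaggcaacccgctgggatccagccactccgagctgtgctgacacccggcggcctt
CPS1 promoter: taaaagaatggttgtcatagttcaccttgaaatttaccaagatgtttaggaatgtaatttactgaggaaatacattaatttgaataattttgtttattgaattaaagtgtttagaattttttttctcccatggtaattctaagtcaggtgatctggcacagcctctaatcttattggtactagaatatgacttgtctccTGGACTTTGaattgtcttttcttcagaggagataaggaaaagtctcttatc
CPS1 region with the highest fold: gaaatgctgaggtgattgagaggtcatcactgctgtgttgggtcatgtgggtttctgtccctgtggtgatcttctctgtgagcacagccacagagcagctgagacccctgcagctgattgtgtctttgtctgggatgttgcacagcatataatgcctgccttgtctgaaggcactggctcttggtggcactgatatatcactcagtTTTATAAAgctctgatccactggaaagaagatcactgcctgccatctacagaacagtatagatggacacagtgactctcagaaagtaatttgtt

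In the PCK1 promoter the capitals mark 1 C/EBP match, from base 95, and 2 overlapping cyclic AMP cores, from bases 240 and 242, which together make a full palindrome next to the TSS. The CPS1 promoter holds 1 HNF4 match, from base 200, on the reverse strand. None of the 7 motifs was matched in the TAT promoter or the FBP1 promoter, and the downstream CPS1 region holds 2 overlapping TATA box matches. Over 20651 promoters of the same length, 6.64% hold the cyclic AMP core, 8.35% the C/EBP site, 0.315% the HNF4 site and 10.4% the TATA box. Base composition differed between these starts. GC content was 31.2% at CPS1 and 46.4% at TAT, with 0 and 1 CpG dinucleotides, against 60.4% and 17 at PCK1, 65.2% and 16 at ASL, and 72.8% and 30 at FBP1. Over its annotated starts ARG1 had 41.2 to 50% and 1 to 3 CpG, and ASS1 68.4 to 78.8% and 18 to 25. The median was 61.6% GC and 17 CpG in the 11300 promoters with a TSS peak in all 16 libraries, and 53.6% and 6 in the 7483 with a TSS peak in 1 to 15 libraries. PCK1 and ASS1, nearer the former set in composition, still lacked a TSS peak in some libraries. A match is a run of letters, and no binding was measured.

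Peak lists differ in length, from 99960 to 217308 peaks and from 64.1 to 156 Mb of covered sequence, and read depth per library was not used here. Values are therefore given as peak bases in the window per Mb of all peak bases of the same library, called peak bases per Mb. Cerebellum had the longest lists, and 60.1% of all genes were lower there than in the other tissues by limma with Benjamini-Hochberg adjustment, so a cerebellum value stands beside that background. The liver label was checked against 5 hepatocyte genes (ALB, APOH, SERPINC1, TTR and APOA1). Their summed peak bases per Mb were 304 and 163 in the 2 liver libraries and 23.3 to 87.5 in the other 14, and 4 of the 5 passed the test in liver. The adipose label had weaker marks. Of ADIPOQ, LEP, PLIN1 and FABP4, only FABP4, a fatty acid carrier of adipocytes, passed the test in adipose (log2 difference 1.25, adjusted p = 0.0218, limma), a call lost without either adipose library, and the sum of the 4 was 126 and 72.0 in adipose with its highest tissue mean in spleen. No gene on the lists for Kupffer cells (4 genes), endothelium (4), bile duct (3 of 4 in the annotation), stellate cells (3) or leukocytes (3) passed the test in liver, and 4 of these 17 genes had an unadjusted p under 0.05 (limma), as did 2985 of all 19638 genes. For each of these lists, 4 to 12 of the 14 other libraries had a summed level above that of the lower liver library.

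**Figure D1:**
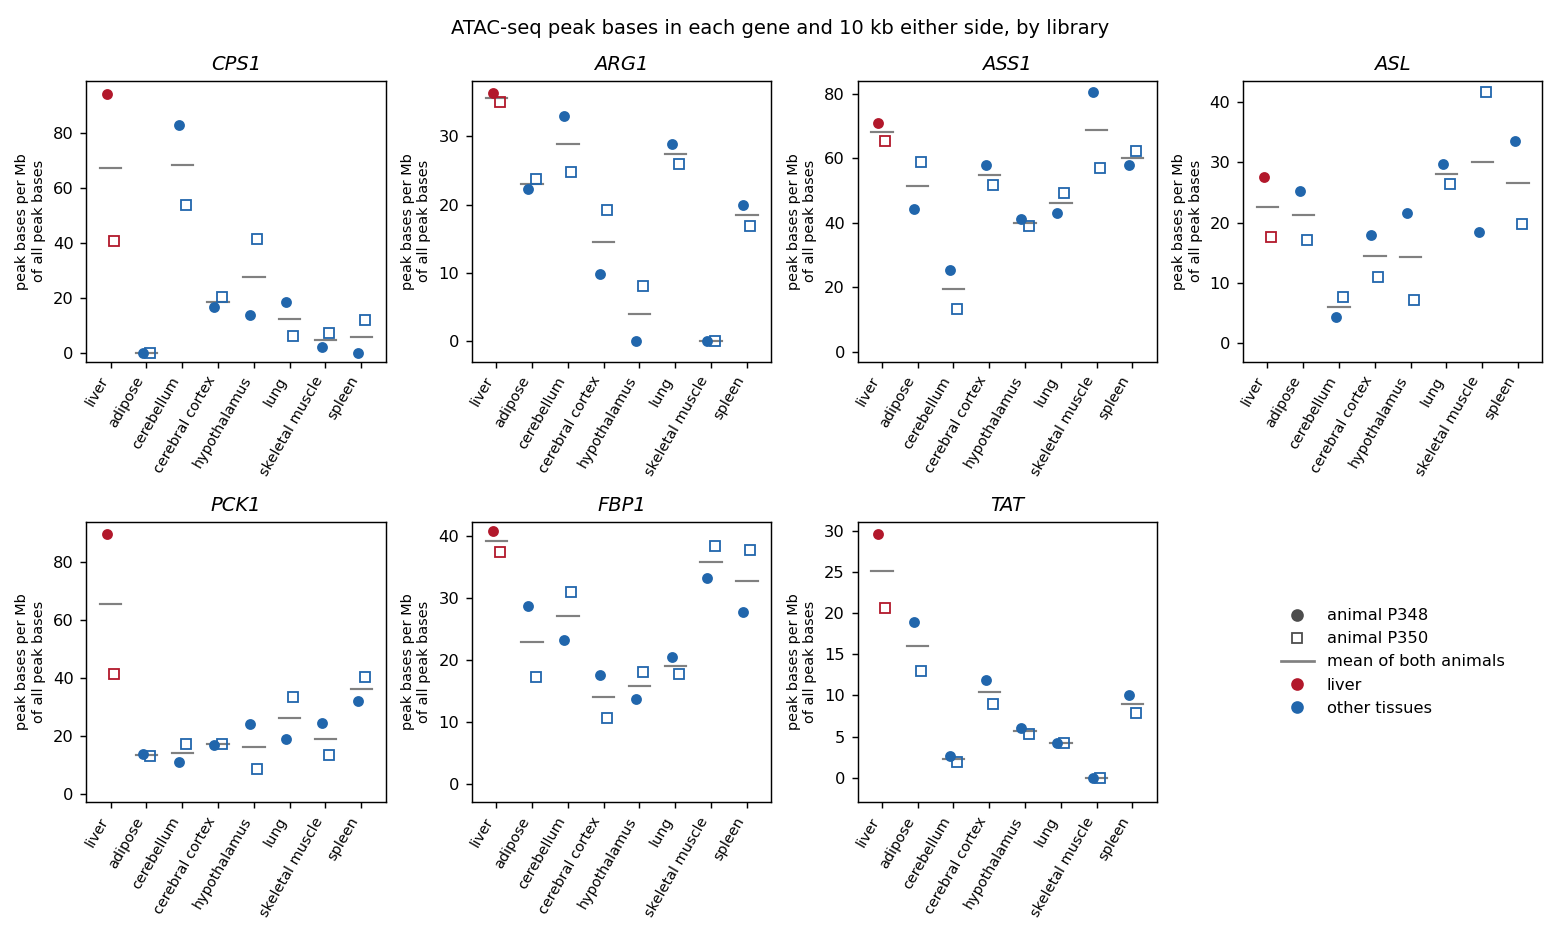
Peak bases per Mb of all peak bases (vertical axis) in each gene and 10 kb either side, for each tissue (horizontal axis). Circles and squares are the 2 animals, and bars are their mean. Both liver libraries lie above all 14 others for ARG1, PCK1 and TAT, while cerebellum and hypothalamus overlap liver for CPS1. For ASL liver overlaps every tissue except cerebellum, which is lower.

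The first comparison asked where these genes had more open chromatin in liver than elsewhere. Liver had the highest tissue mean for 4 of the 7 genes (ARG1, PCK1, FBP1 and TAT), against 7.94% of all genes tested, and had rank 2 of the 8 tissues for CPS1 and ASS1 and rank 4 for ASL. Both liver libraries lay above all 14 others for 3 of the 7 (ARG1, PCK1 and TAT), against 1.18% of all genes. No member had both liver libraries below all others, against 0.178% of genes. In a limma fit over all genes, TAT was the 1 member of the 7 to pass an adjusted p of 0.05, where 0.682% of genes were higher in liver and 0.132% lower. All 7 differences were positive, with a median of 1.199 on the log2 scale beside 0.13 over all genes. The genes were chosen as liver genes with earlier results of these data known, so these counts are a description.

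CPS1, the entry step of the urea cycle, had 94.1 and 40.6 peak bases per Mb in liver (P348 and P350). It had 82.7 and 53.7 in cerebellum, 13.8 and 41.4 in hypothalamus, 16.8 and 20.6 in cerebral cortex, 18.7 and 6.34 in lung, 0 and 12.1 in spleen, 2.19 and 7.19 in skeletal muscle, and 0 in both adipose libraries. Liver and cerebellum overlapped at the top, with the liver libraries on either side of both cerebellum libraries. Hypothalamus of P350 (41.4) also lay above liver of P350 (40.6). Mean values were 67.4 ± 37.8 in liver (SD, n = 2) and 19.7 ± 24.0 in the other libraries (SD, n = 14). The log2 difference was 2.01 ± 0.45 (SE, limma) with an adjusted p of 0.0578, and the exact two-sided permutation test over libraries gave p = 0.0833. The cerebellum signal was spread over 24 and 14 peaks, against 9 and 8 in liver. Fold enrichment, the signal of a peak over its local background, ran from 2.28 to 5.30 in cerebellum and from 2.80 to 7.37 in liver. Peak bases do not weigh a peak by its fold, so similar values need not mean similar strength. Without both cerebellum libraries, a setting chosen after the values were seen, CPS1 passed the test in liver (2.37, adjusted p = 0.0331, limma). In adipose, where 0.968% of all genes were lower, CPS1 was lower than in the other tissues (log2 difference -2.27 ± 0.45, adjusted p = 0.0210, limma). That call was lost without adipose P348 or without adipose P350. In cerebellum, where 10% of all genes were higher, CPS1 was higher (2.12, adjusted p = 0.00138, limma).

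ARG1, the last step of the cycle, had 36.3 and 34.999 peak bases per Mb in liver. The other tissues followed with 33.0 and 24.8 in cerebellum, 28.9 and 25.9 in lung, 22.3 and 23.7 in adipose, 19.96 and 16.9 in spleen, 9.77 and 19.2 in cerebral cortex, and 0 and 8.07 in hypothalamus. Skeletal muscle had no peak in the window in either animal. Both liver libraries were above every other library, with cerebellum of P348 the nearest. The log2 difference for liver was 1.199 ± 0.30 (SE) with an adjusted p of 0.0837 (limma), and the exact two-sided permutation p was 0.0167, the smallest that 120 choices of 2 libraries allow. ARG1 was lower in skeletal muscle (-2.26, adjusted p = 8.43e-05, limma), where 14% of all genes were lower, and in hypothalamus (-1.46, adjusted p = 0.0203, limma), where 2.2% were. It was higher in cerebellum (0.89, adjusted p = 0.0172, limma), where 10% of all genes were higher.

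ASS1 and ASL, the middle steps, were open in most tissues. ASS1 had 70.9 and 65.3 peak bases per Mb in liver and 80.5 and 56.8 in skeletal muscle, with 13.4 to 62.3 in the other 12 libraries. Liver and muscle overlapped, and cerebellum was lowest at 25.4 and 13.4. The liver difference for ASS1 was 0.53 ± 0.22 on the log2 scale (adjusted p = 0.270, limma), and the exact permutation p was 0.133. It was 0.091 with 2 kb windows, 0.20 with 50 kb windows and 1.07 with q under 0.01, and no alternative passed. ASL had 27.6 and 17.6 in liver, and the 14 other libraries ran from 4.45 to 41.6 with a median of 19.1. In 9 of those 14 libraries ASL was above the lower liver library. The ASL difference was 0.25 ± 0.33 (adjusted p = 0.766, limma). Both genes were lower in cerebellum (ASS1 -1.33, adjusted p = 0.000289; ASL -1.25, adjusted p = 0.00461, limma), where most genes were.

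PCK1 had 89.9 and 41.3 peak bases per Mb in liver. Spleen came next at 32.0 and 40.4, then lung at 18.7 and 33.4, skeletal muscle at 24.4 and 13.2, cerebral cortex at 16.9 and 17.03, hypothalamus at 23.9 and 8.37, cerebellum at 10.9 and 17.2, and adipose at 13.6 and 13.0. The lower liver library exceeded the higher spleen library by less than 1 unit. From spleen down, each tissue overlapped the next in this order of means, and lung did not overlap cerebral cortex, cerebellum or adipose. Liver averaged 65.6 ± 34.4 (SD, n = 2) against 20.2 ± 9.43 (SD, n = 14), a log2 difference of 1.48 ± 0.32 with an adjusted p of 0.0526 (limma) and an exact two-sided permutation p of 0.0167. Adipose, the other tissue in which PCK1 is known for a role, had the lowest tissue mean. Its log2 difference from the other tissues was -0.64 ± 0.32 (adjusted p = 0.271, limma), and 12 of the 14 other libraries lay above the lower adipose library. Against the 12 libraries that are neither liver nor adipose, adipose averaged 13.3 and the others 21.4 peak bases per Mb (exact two-sided permutation p = 0.264). In adipose 2.32% of all genes were higher and 0.968% lower, and of the 7 members only CPS1 passed, downward. No member had both adipose libraries above all others (2.56% of genes) or below all others (0.367%). Leukocyte gene CD3E was higher in adipose as well (log2 difference 1.37, adjusted p = 0.0283, limma), 1 of 3 leukocyte markers, with summed leukocyte levels of 118 and 132 in adipose against 27.9 to 304 over the 14 libraries outside liver, and their part in the PCK1 value was not tested.

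FBP1 had 40.8 and 37.4 peak bases per Mb in liver. Skeletal muscle had 33.3 and 38.4 and spleen 27.7 and 37.7, and both overlapped liver. The remaining 10 libraries lay between 10.6 and 31.0. The liver difference was 0.67 ± 0.23 on the log2 scale with an adjusted p of 0.183 (limma) and an exact two-sided permutation p of 0.05. The window holds the TSS of FBP2, the muscle form of the enzyme. A region there was open in skeletal muscle (fold 4.60 and 4.68), lung (3.42 and 3.89) and adipose (2.32 and 3.52), with a peak in cerebellum of P348 (2.87) and none in liver. In skeletal muscle this region held 815 of the 3278 peak bases of the window in P348 and 759 of 2792 in P350. The overlap of skeletal muscle with liver is thus one of windows, which also count bases outside FBP1. Without bases within 2 kb of another gene's TSS, the FBP1 difference was 0.79 (adjusted p = 0.154, limma). That setting leaves in bases between the 2 genes that lie farther from the FBP2 TSS.

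TAT had 29.7 and 20.7 peak bases per Mb in liver and 19.0 and 13.0 in adipose. Cerebral cortex had 11.9 and 8.94, spleen 10.1 and 7.91, hypothalamus 6.05 and 5.32, lung 4.16 and 4.18, cerebellum 2.61 and 1.92, and skeletal muscle 0 in both animals. Liver did not overlap adipose, and adipose did not overlap cerebral cortex. The log2 difference for liver was 1.48 ± 0.24 with an adjusted p of 0.0169 (limma), and the exact two-sided permutation p was 0.0167. Without the P348 library, which leaves 1 liver library assumed to vary like the other tissues, the difference was 1.27 and the adjusted p 0.331 (limma), and limma then called 0 genes in liver in either direction, with 1444 at an unadjusted p under 0.05. TAT was lower in skeletal muscle (-1.46, adjusted p = 0.000388, limma), where 14% of all genes were lower. It was also lower in cerebellum (-0.85, adjusted p = 0.00680, limma). There 60.1% of all genes were lower and the median difference over all genes was -0.82, close to that of TAT.

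**Figure D2:**
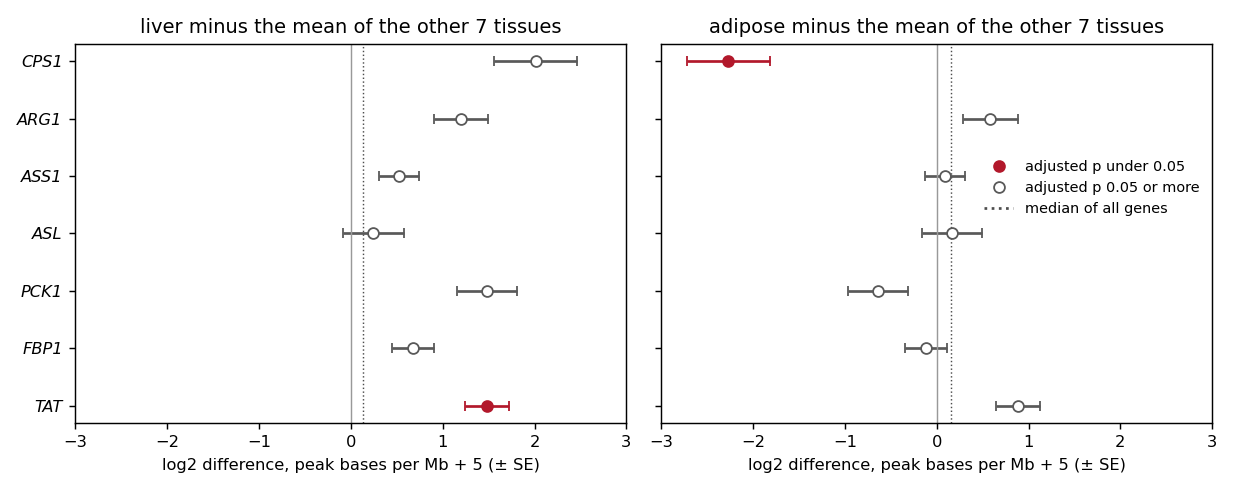
Log2 difference in peak bases per Mb (plus 5) of liver (left) and adipose (right) from the mean of the other 7 tissues, with bars of 1 SE from the limma fit. All 7 genes lie right of 0 in liver, with TAT past the threshold, and CPS1 is the 1 gene past it in adipose, to the left.

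The second comparison asked for a peak within 2 kb of an annotated TSS. In liver such a peak was present in 12 of 14 pairs of gene and library, and in the other tissues in 56 of 98. Both liver libraries had one for 6 of the 7 genes, against 73.4% of all protein-coding genes. ASL and FBP1 had a TSS peak in all 16 libraries, as did 54.7% of all genes. None of the 7 lacked a TSS peak in every library, against 9.07% of genes, and none had it in both liver libraries alone, against 0.106%. Fold enrichment, given by the peak caller, compares the signal of a peak with its local background. At the ASL start it was 7.64 and 7.41 in liver, and it was highest in cerebral cortex at 11.7 and 10.96. At the FBP1 start it was 11.2 and 7.0008 in liver and 3.47 to 9.85 elsewhere, and 4 other libraries lay above the lower liver value. ASS1 had a TSS peak in 11 of 14 other libraries and in neither cerebellum library. The strongest such peak had fold 5.13 and 4.09 in liver and 2.59 to 4.71 elsewhere, where 1 library lay above the lower liver value. That library was skeletal muscle of P350, whose peak lay in an intron 1874 bp from the nearest TSS. In the region over the ASS1 starts (chr1:270530864-270532872) skeletal muscle of P350 had fold 2.45. The highest fold outside liver in that region was 3.38, in hypothalamus of P350.

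For ARG1, PCK1 and TAT, the strongest peak within 2 kb of any TSS had a higher fold in liver than in any other library. The peaks compared did not always cover the same stretch. ARG1 had a TSS peak in 8 of 14 other libraries, with fold 2.65 to 3.85 against 6.39 and 5.92 in liver. The strongest one covered the start of the transcript NM_214048.2 (chr1:32020021-32020652), where cerebellum had fold 2.54 and 2.58 and lung 2.81 and 3.85. The peaks of adipose and spleen lay outside that stretch. Before the most upstream ARG1 start, a region (chr1:32030456-32030902) had fold 3.37 and 3.54 in cerebellum. There liver of P350 had 3.22 and liver of P348 had no peak. PCK1 had a TSS peak in 6 of 14 others (both adipose, both hypothalamus, 1 cerebellum and, 1711 bp from the TSS, 1 lung). Its fold there was 2.16 to 2.87, against 3.26 and 3.59 in liver. The PCK1 region (chr17:57929777-57931125) holds the printed promoter, and the peaks of both liver libraries, both adipose libraries, cerebellum of P350 and hypothalamus of P348 cover the cyclic AMP cores in it. In adipose its fold was 2.16 and 2.34. Folds from different libraries are not scaled to one another, so these orders are descriptions.

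TAT had a TSS peak in the 4 liver and adipose libraries and in none of the other 12, a pattern shared by 4 of 20674 genes (0.0193%). The stretch differed between the tissues. In liver the peak lay over the TSS (chr6:14582897-14583448), reached into the printed promoter and had fold 5.28 and 5.30, with no peak in any other library. In adipose the peak lay 651 to 1002 bp into the gene over the first coding bases (chr6:14582201-14582552), with fold 3.10 and 3.16, and none of the other 14 libraries had a peak there. Fisher's exact test of TSS peaks in 2 of 2 liver libraries against 2 of 14 others gave p = 0.05 for TAT, where the smallest p such a test can give is 0.00833. It gave 0.467 for PCK1, 0.5 for ARG1 and 1 for the other 4 genes.

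**Figure D3:**
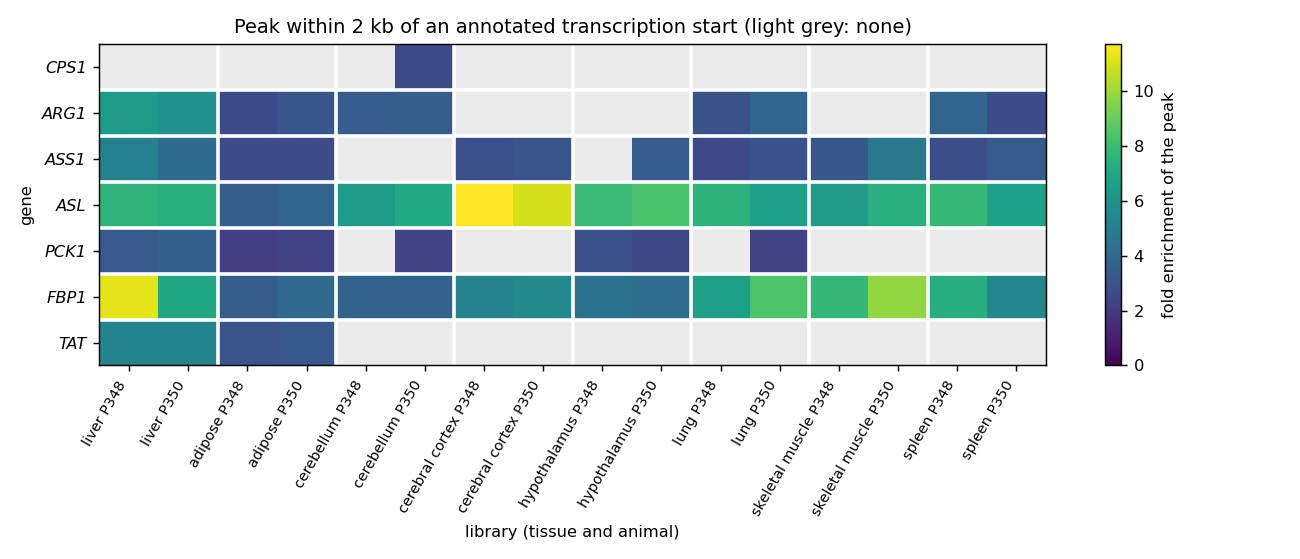
Fold enrichment (colour) of the peak within 2 kb of an annotated TSS for each gene (vertical axis) in each library (horizontal axis), with light grey where no such peak was called. ASL and FBP1 are filled in all 16 libraries, TAT only in the 4 liver and adipose libraries, and CPS1 only in cerebellum of P350.

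CPS1 was the exception at the annotated start site. It had no peak within 2 kb of its 1 annotated TSS in either liver library, as did 20.1% of all genes, and the 1 library with such a peak was cerebellum of P350, with fold 2.72. Away from the annotated TSS, 6 CPS1 regions were open in liver, and all 6 were open in liver only. They lie from 5.96 kb before to 17.1 kb after the annotated TSS, and 4 of them had no peak at all outside liver. Among these 4 is the region chr15:113221305-113221716, with fold 6.56 and 5.19 in liver. It ends just before the first annotated coding base, at 113221742. Whether the annotated TSS is the start used in liver was not tested.

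The regions of CPS1 open in brain tissues lay elsewhere in the gene. Cerebral cortex had 5 open regions and hypothalamus 3, all beyond the last liver region, and 7 of 8 cerebellum regions were beyond it as well. The region with the highest fold (chr15:113319863-113320309) lies 110 kb into the gene over a coding exon and had a peak in all 6 libraries of cerebellum, cerebral cortex and hypothalamus and in no other. Its fold was 13.7 and 13.9 in cerebral cortex, 13.0 and 14.1 in hypothalamus, and 4.50 and 5.30 in cerebellum. The highest fold of any CPS1 peak in liver was 7.37, at a region 3.94 kb after the TSS. No CPS1 region was open both in liver and in a brain tissue, although cerebellum of P348 had a peak in 2 of the 6 liver regions.

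**Figure D4:**
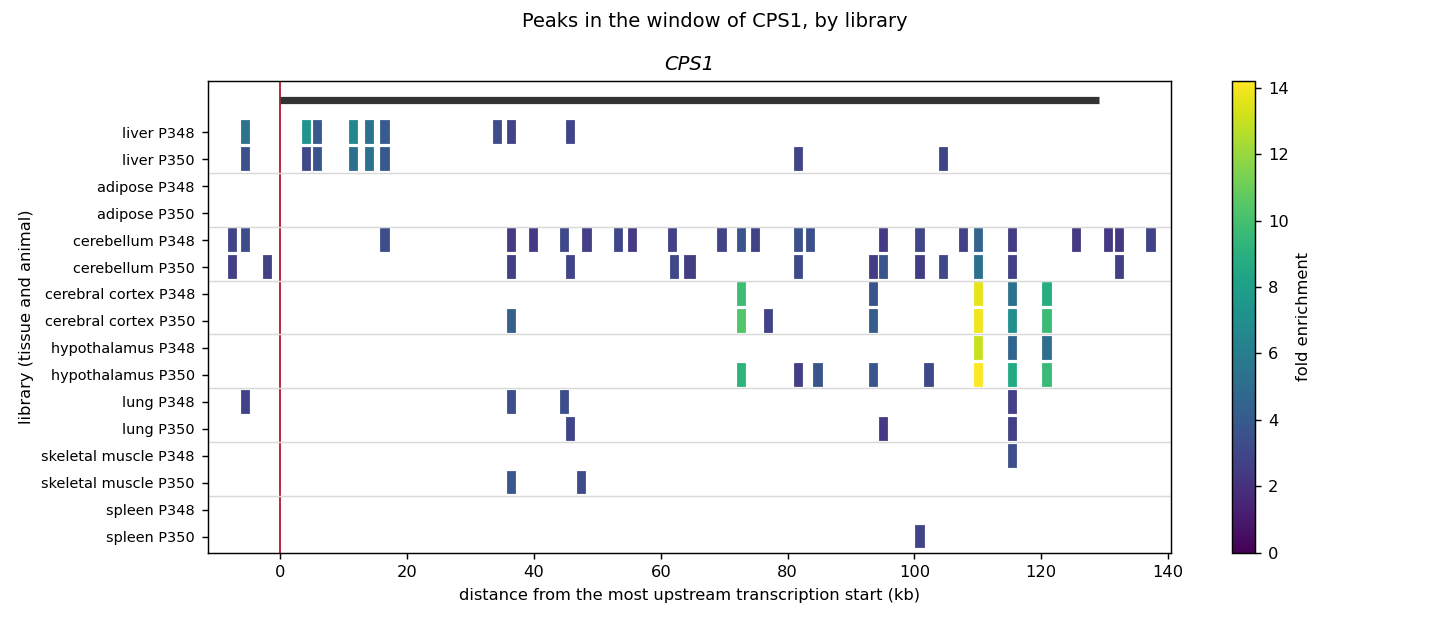
Peaks in the CPS1 window by library (vertical axis) against distance from the annotated TSS in kb (horizontal axis), coloured by fold enrichment. Each bar spans a merged region, widened to a minimum for visibility, the black line is the gene and the red line the TSS. The bars present in both liver libraries lie between -5.96 and 17.1 kb, further bars of 1 liver library lie beyond, and the strongest bars, of cerebral cortex and hypothalamus, stand at 110 kb.

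The 7 genes were also counted in the other tissues with limma. Cerebellum had 2 higher and 3 lower, where 10% and 60.1% of all genes were called, skeletal muscle 0 and 3 (30% and 14%) and hypothalamus 0 and 1 (1.31% and 2.2%). Cerebral cortex (0.575% and 0.132%), spleen (13.7% and 3.56%) and lung (0% and 0%, with 2447 genes at an unadjusted p under 0.05) had none. CPS1 was 1 of the 3 lower in skeletal muscle (-1.24, adjusted p = 0.0394, limma).

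The third comparison counted regions, made by merging peaks of the 16 libraries that share at least 1 bp, and called a region open in a tissue where both animals had a peak. The 7 windows held 120 regions, of which 65 were open in at least 1 tissue, 35 in liver and 17 in liver only. Liver-only regions were 26.2% of the 65 (95% Wilson interval 17.02 to 38.0%, counting error only), against 3.48% of the 172750 open regions in the windows of all protein-coding genes. With a peak in either animal enough to call a region open, the share was 10% against 3.26%. CPS1 had 6 of the 17, FBP1 4, TAT 3, PCK1 2, ARG1 1 and ASS1 1, and ASL had none. Regions of 1 gene share a window and are not independent. Of the 17, 10 lay in introns, 3 upstream, 2 on coding exons, 1 on an untranslated exon and 1 downstream, and 10 had no peak outside the liver libraries.

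FBP1 shows how an open start can go with liver-only regions inside the gene. Its TSS region (chr10:27587428-27589285) had a peak in all 16 libraries. In introns, the regions chr10:27594990-27595324, chr10:27598334-27598789 and chr10:27615242-27615776 had peaks in both liver libraries and in no other, with fold 3.85 and 3.23, 5.20 and 2.75, and 5.21 and 5.04. The remaining one, upstream at chr10:27581112-27581956, had fold 5.67 and 3.67 in liver and 2.25 in 1 cerebellum library. ASS1 had 1 such intronic region (chr1:270536496-270536972), with fold 2.58 and 2.28, and ARG1 had 1 (chr1:32018201-32018480), with fold 3.32 and 3.22.

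At PCK1 the region with the highest fold lay from -7920 to -7001 bp relative to the TSS (chr17:57922587-57923506). Its fold was 5.44 and 4.06 in liver, 4.15 and 3.33 in spleen, 3.60 and 3.02 in lung, 3.04 and 3.20 in cerebral cortex, and 2.15 and 2.51 in adipose, so liver and spleen overlapped there. Cerebellum of P348 had a peak there too, and hypothalamus and skeletal muscle had none. A region after the gene (chr17:57941286-57945939) had a peak in all 16 libraries. The 2 liver-only regions of PCK1, over the end of the gene and just after it, were weak, with fold 2.32 and 2.05 and fold 1.91 and 2.57, and both had peaks outside liver. The former had 4, in single libraries of cerebellum (2.52), lung (2.37), spleen (2.33) and skeletal muscle (2.178), and the latter 1, in skeletal muscle (2.61).

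At TAT, the start region was joined by a region 3.96 to 4.35 kb upstream (chr6:14587167-14587553) with fold 4.99 and 3.43 in liver and a peak of 2.76 in 1 spleen library. Another, inside the gene (chr6:14573915-14575179), had fold 2.32 and 2.46 in liver and a peak in 1 adipose and 1 cerebral cortex library. The region after the gene (chr6:14569345-14570150) was open in all tissues except skeletal muscle, with fold 2.39 to 4.15. It was the only TAT region in lung, hypothalamus and cerebellum.

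**Figure D5:**
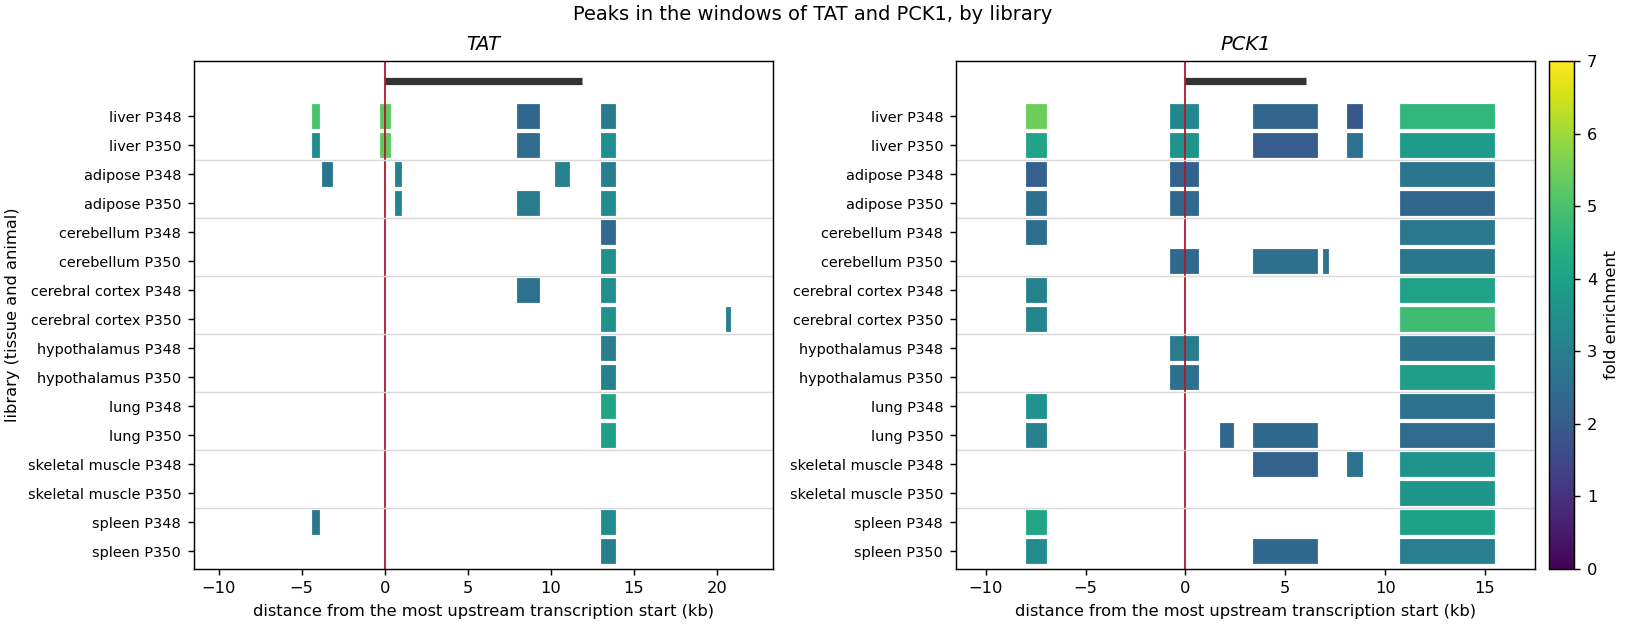
Peaks in the windows of TAT (left) and PCK1 (right) by library (vertical axis) against distance from the most upstream TSS in kb (horizontal axis, along the direction of transcription), coloured by fold enrichment. Bars span merged regions, black lines are the genes and red lines the TSS. Liver has a bar over the TAT start with fold 5.28 and 5.30 where adipose has a separate bar just inside the gene, and the PCK1 bar farthest right is present in all 16 libraries.

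The 7 motifs were also searched in the central 300 bp of the 17 liver-only regions. The centre was that of the region merged over the 16 libraries, so the searched stretch can miss a liver peak. In the TAT region chr6:14573915-14575179, with a C/EBP match, it lay outside the peak of liver P348. The C/EBP site was matched in 6 of the 17, the cyclic AMP core and the TATA box in 3 each, the FOXA site in 2, the HNF4 site and the glucocorticoid receptor core in 1 each, and the HNF1 site in none. Over all 284057 open regions of the genome the shares were 12.7% for C/EBP, 4.07% for the cyclic AMP core, 13.9% for the TATA box, 3.72% for FOXA, 0.450% for HNF4, 7.98% for the glucocorticoid receptor core and 0.851% for HNF1. Over the 9621 regions open in liver only they were 19.8%, 3.63%, 16.1%, 7.23%, 1.64%, 9.15% and 2.79% in the same order. With 17 regions these matches are a description.

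The paralogs of 3 members, which carry out the same reaction, were set beside them. ARG2, the mitochondrial arginase, had a TSS peak in all 16 libraries, and its liver difference was 0.10 ± 0.20 (adjusted p = 0.858, limma) beside 1.199 for ARG1. In skeletal muscle, where ARG1 had no peak, ARG2 had 32.4 and 34.5 peak bases per Mb and was higher than in the other tissues (0.82, adjusted p = 0.00513, limma). The background for this call and for FBP2 below is that 30% of all genes were higher in skeletal muscle, with a median difference of 0.33. PCK2, the mitochondrial form of PCK1, had a TSS peak in all 16 libraries and a liver difference of 0.90 ± 0.24 (adjusted p = 0.101, limma). Liver was its highest tissue too, at 67.4 and 52.5 peak bases per Mb against 9.68 to 52.7 in the other 14 libraries. FBP2 had no TSS peak in liver and one in 7 of the other 14 libraries. Its highest tissue was skeletal muscle, at 32.6 and 60.4 peak bases per Mb (0.88, adjusted p = 0.00936, limma), against 23.4 and 16.4 in liver. The windows of FBP1 and FBP2 overlap, so the 2 values share bases.

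Other genes of the same pathways were counted in the same fit. Of 7 other urea cycle and ammonia genes, none passed the test in liver in either direction, and 3 had an unadjusted p under 0.05 (limma), as did 2985 of all 19638 genes. The median difference was 0.13, the same as over all genes. The nearest was OTC, which joins carbamoyl phosphate to ornithine, with 35.8 and 6.63 peak bases per Mb in liver (1.60 ± 0.38, adjusted p = 0.0754, limma). GLUL, which fixes ammonia into glutamine, had a difference of -0.69 (adjusted p = 0.312, limma). Of 10 other gluconeogenesis genes, 3 were higher in liver (0.682% of all genes were) and none lower, with a median of 0.85. Among them were SLC2A2, the glucose transporter of hepatocytes (2.95 ± 0.43, adjusted p = 0.0142, limma), and G6PC, which frees glucose from its phosphate (2.27 ± 0.34, adjusted p = 0.0142, limma). G6PC was also higher in adipose (1.37, adjusted p = 0.0431, limma), a call lost in 8 of 16 fits that left out 1 library and in 8 of 11 other alternatives.

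Of 14 other genes of amino acid breakdown, 1 was higher in liver (0.682% of all genes were) and none lower, with a median of 0.84. It was TDO2, which opens the ring of tryptophan, with 45.2 and 25.6 peak bases per Mb in liver against a median of 0.861 in the other 14 libraries (2.05 ± 0.35, adjusted p = 0.0200, limma). Of 14 hormone receptors and transcription factors, 1 was higher in liver, ONECUT1, a hepatocyte factor (1.40 ± 0.28, adjusted p = 0.0392, limma), and none was lower. That call was lost without any 1 library of adipose, cerebral cortex, liver, lung or spleen. The glucocorticoid receptor NR3C1 had a difference of -0.01 ± 0.20 (adjusted p = 0.995, limma), the glucagon receptor GCGR 1.63 ± 0.54 (adjusted p = 0.170), and HNF4A, which binds the HNF4 site, 2.179 ± 0.48 (adjusted p = 0.0541). These 3 and OTC and GLUL were named after their values were seen. Of 12 adipocyte lipid genes, FABP4 alone was higher in adipose (2.32% of all genes were) and none was lower.

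Across the 16 libraries the members did not move as 1 block. Pearson correlations of log2 peak bases per Mb between pairs of the 7 ran from -0.54 (CPS1 and ASL) to 0.59 (ASS1 and ASL), and ARG1 and TAT had 0.55. The libraries share animals and differ in list length, so these values are descriptions. By the same measure, the genes closest to TAT were LHX9 (0.84) and CD8B (0.83), and those closest to PCK1 were NMI (0.85) and BTNL10 (0.84). For CPS1 they were KLHL4 (0.92) and SLC17A4 (0.91), for ARG1 ADGRE1 (0.90) and STEAP4 (0.89), for ASS1 EMP3 (0.92) and CHSY1 (0.90), for ASL PMEL (0.93) and MEAF6 (0.92), and for FBP1 SLC30A9 (0.83) and HAND2 (0.82). No other member was among the 2 closest genes of any member.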

How the data were processed

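The processed files are 1 peak list per pig library. Per the study's methods, the authors called peaks with MACS2 2.1.1 in broad mode at a q-value limit of 0.05 on Sscrofa11.1. Trimming with Trim Galore 0.4.5, alignment with BWA 0.7.17 mem, removal of mapping qualities under 30 (SAMtools 1.10) and marking out duplicates (Picard 2.18.17) are described for ChIP-seq reads, and a shift of ATAC-seq read ends is not given in the sources used here. Replicates were not pooled in the lists used here. To define accessible regions the authors called peaks on the merged reads of the 2 replicates, and those calls were not used. The lists hold no header. Deposited columns hold the score, a whole number near the −log10 q-value multiplied by 10, the fold enrichment (a ratio to local background) and the −log10 p-value and −log10 q-value, all averaged by the authors' caller over a broad peak. In the lists, 1.54 to 16.3% of a library's peaks have a q-value above 0.05 in this column. A q-value depends on depth, so a more deeply sequenced library can have more and weaker peaks. Read depth was not used here, and Wilson intervals (95%) cover counting error only.

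Groups are the labelled tissues, and replicates are the animals that the labels name. The names pair samples across tissues because 1 animal gave all 8. In the check of this pairing, the correlation over genes of the animals' difference between 28 pairs of tissues ran from -0.21 to 0.16, with 3 over 0.1, so the pairing rests on the labels. Gene and TSS positions came from release 106 of NCBI's annotation, built on Sscrofa11.1 like the peaks, and promoter sequences from the RefSeq genome. Python 3.11.15 (numpy 2.4.6, pandas 2.3.3, scipy 1.17.1) computed overlaps. The test was limma 3.58.1 (R 4.3.3) on log2(peak bases per Mb + 5) of the 19638 protein-coding genes with a peak base in 2 or more libraries, each tissue against the mean of the other 7, with trend and robust settings, Benjamini-Hochberg adjustment over all genes and a threshold of 0.05. Fold changes of low genes are understated on this scale. Exact permutation tests (120 choices of 2 of 16 libraries) and Fisher's exact tests were two-sided. Statistics were tested on simulated data. With 2 littermates per tissue, limma p-values measure the spread between these animals. The permutation and Fisher tests treat the 16 libraries as exchangeable units. Their p-values therefore also reflect differences among the other 7 tissues, and they ignore that libraries share a tissue or an animal.

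The members, gene lists and tests were chosen with earlier results of these data known. All 7 members are named. Of each list at most 6 called genes are named, those with the largest liver difference, exceptions are stated, and 1 called gene and 1 region are not reported here. Likeness is the Pearson correlation over 16 libraries with genes at least 1 Mb away or on another chromosome whose symbol does not start with LOC. G6PC was used for G6PC1, and KRT7 had no entry in the annotation. Alternatives were pseudocounts of 1 and 20, no filter, q under 0.01, lists of 99960 peaks each, windows of 2 and 50 kb, leaving out bases near another TSS, peak number, the animal as a block, a TSS distance of 500 bp, merging within 500 bp, leaving out each library and, added after the values were seen, leaving out both cerebellum libraries.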

Additional observations from a re-analysis of the deposited data

How the results depend on the processing

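In liver, the alternatives kept the sign of all 7 differences, except that ASL was -0.018 without liver P348. Calls moved more. Of the 7 genes, 1 was called higher in liver. That number was 4 with a pseudocount of 20, 2 with q under 0.01, 3 with lists of equal length, 4 with peak number, 2 without both cerebellum libraries and 0 (without liver P348) to 4 (without hypothalamus P350) when 1 library was left out. CPS1 passed with a pseudocount of 20 (1.26), q under 0.01 (2.52), lists of equal length (2.28), 50 kb windows (1.71), peak number (1.67) and without cerebellum (2.37), and ranged from 1.45 to 2.57 with a library left out. ARG1 passed with a pseudocount of 20 (0.68) and peak number (1.26) and ranged from 1.0998 to 1.30, and PCK1 passed with a pseudocount of 20 (1.06) and equal lengths (1.90) and ranged from 0.96 to 2.00. FBP1 passed with peak number (1.22). TAT lost its call with 50 kb windows (1.58, adjusted p = 0.0751, limma) and without liver P348, ranged from 1.27 to 1.70, and over its alternatives its adjusted p ran from 0.00471 to 0.331. ASL ranged from -0.018 to 0.51, and ASS1 from 0.091 to 1.07 over the other alternatives. A tissue left with 1 library was assumed to vary like the others. With 1 library left out, CPS1 also passed without hypothalamus P350 or spleen P350, ARG1 without either hypothalamus library, and PCK1 without cerebellum P350 or either hypothalamus library. The members whose liver libraries were above all others numbered 1 with 50 kb windows and 3 to 5 without a liver library. Liver-only regions were 10% when either animal sufficed, against 3.26% over all genes. Over all genes, 134 were higher and 26 lower in liver. Higher genes numbered 56 and 239 with pseudocounts of 1 and 20, 391 with q under 0.01, 272 with equal lengths, 76 with 50 kb windows and 0 to 246 with a library left out (0 without liver P348). Lower genes numbered 66 with q under 0.01, 43 with equal lengths, 16 with 2 kb windows, 47 with peak number, 66 without cerebellum and 0 to 44 with a library left out. The gluconeogenesis list fell from 3 called genes to 0 without liver P348, TDO2's list from 1 to 0 without either liver library or with a pseudocount of 1, and ONECUT1's list from 1 to 0 with a pseudocount of 1, no filter, windows of 2 or 50 kb, or without any single library of adipose, cerebral cortex, liver, lung or spleen.

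In adipose 456 genes were higher and 190 lower. Higher genes numbered 192 and 820 with pseudocounts of 1 and 20, 1461 with q under 0.01, 734 with 50 kb windows and 2 to 1227 with a library left out (2 without adipose P350). Lower genes numbered 121 with a pseudocount of 1, 908 with q under 0.01, 335 without cerebellum and 1 to 358 with a library left out. No member was called higher there, but 1 was (TAT) with no filter, 2 kb windows, peak number or without liver P348, so the range with a library left out was 0 to 1. Small adipose differences changed sign. ARG1 was -0.11 with q under 0.01. ASS1 was -0.67 with q under 0.01, -0.011 with 50 kb windows and -0.10 without cerebellum, and ran from -0.098 to 0.28 with a library left out. ASL was -0.16 with equal lengths and -0.0088 without cerebellum, and ran from -0.054 to 0.39. FBP1 was 0.040 with q under 0.01, 0.14 with 50 kb windows and 0.014 with peak number, and ran from -0.42 to 0.19. PCK1 stayed negative in adipose under every alternative run, from -1.18 with q under 0.01 to -0.0034 with peak number (adjusted p = 0.995, limma).

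With the animal as a replicate block, 17 genes were lower in liver, TAT was 1.48 (adjusted p = 0.0218, limma), and no call among the 7 members in liver or adipose changed. The causes of these changes were not tested. Tissues other than liver and adipose were not recomputed. With 2 animals, read depth not used here and mixed cell types, a missing peak says only that the caller's threshold was not reached.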
